A study of Homo sapiens with 6 samples.

Results

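The exons described here are the 4424 skipped (cassette) exons of 31 to 60 nt among the 40658 whose inclusion was measured in MDA-LM2, a human breast cancer line selected from MDA-MB-231 for its spread to the lung. They were chosen by the length of the exon alone, which uses no measured value, and they belong to 3405 genes. All groups were MDA-LM2 cells collected 48 h after lipofection with small interfering RNAs (siRNAs). The siCtrl group received a control siRNA and holds 2 libraries. The siSNRPA1 group, with 3 libraries, was depleted of SNRPA1, whose product U2 A' is part of the small nuclear ribonucleoprotein (snRNP) U2. The siSNRPB group, with 1 library, was depleted of SNRPB, which encodes the SmB proteins of the core shared by most spliceosomal snRNPs. The study design names 3 siRNAs against SNRPA1 and 2 against SNRPB without tying them to libraries. The files hold 1 summary for each group, called a pool here, so no value has a replicate or a standard deviation, and every test below compares the reads of 2 pools rather than the conditions.

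In most human genes the spliceosome first recognises exons rather than introns: the U2 snRNP binds near the branch point upstream of an exon, the U1 snRNP binds the 5' splice site downstream of it, and proteins that bind the exon bridge the pair. A short exon leaves little room for the sequences that attract those bridging proteins, and many short exons are switched on or off between tissues, above all in neurons and muscle. Where the length of a short coding exon is a multiple of 3, its inclusion adds a few amino acids without moving the reading frame.

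Each pool gives an inclusion level between 0, for an exon skipped in every transcript, and 1, for an exon always kept, with an interval set by the authors. It also gives the number of reads that fit only inclusion and the number that fit only exclusion, here called informative reads. Where 3 levels or 3 read counts stand together without names, they are those of siCtrl, siSNRPA1 and siSNRPB in that order. An exon was tested if both pools held at least 20 informative reads and the pair held at least 5 of each kind. "Fell" and "rose" mean an adjusted p under 0.05 in a two-sided Fisher's exact test, with Benjamini-Hochberg adjustment over all tested exons of any length, together with a difference of at least 0.1 in the inclusion level in the direction of the reads.

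The sequences that follow belong to exons named in the results, and no call was based on them. Each is the skipped exon in capitals with 15 bases of its neighbouring exons in lower case, written 5' to 3' as in the GENCODE 29 transcript. Exons of the first 2 sets were taken where each pool compared had 50 or more informative reads. The first set holds coding exons from among the largest losses of inclusion at that depth, MSL1, AGTPBP1, C1orf43 and YTHDC1 in siSNRPA1, and C1orf43, SRRM1 and VRK3 in siSNRPB.
MSL1: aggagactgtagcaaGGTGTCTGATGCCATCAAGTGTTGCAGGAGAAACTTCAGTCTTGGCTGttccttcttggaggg
AGTPBP1: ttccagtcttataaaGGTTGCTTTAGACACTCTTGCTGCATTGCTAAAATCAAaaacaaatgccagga
C1orf43: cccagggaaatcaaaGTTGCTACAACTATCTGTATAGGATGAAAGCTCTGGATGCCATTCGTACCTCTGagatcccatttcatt
YTHDC1: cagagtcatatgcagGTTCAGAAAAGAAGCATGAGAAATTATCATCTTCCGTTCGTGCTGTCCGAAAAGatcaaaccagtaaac
SRRM1: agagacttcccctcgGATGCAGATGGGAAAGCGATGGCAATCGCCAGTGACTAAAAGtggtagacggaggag
VRK3: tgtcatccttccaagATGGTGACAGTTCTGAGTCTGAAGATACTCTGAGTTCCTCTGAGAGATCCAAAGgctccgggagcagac
On hg38, with the strand in parentheses, the exons lie for MSL1 at chr17:40131537-40131584 (plus), AGTPBP1 at chr9:85660936-85660973 (minus) and C1orf43 at chr1:154213893-154213946 (minus). Those that follow lie for YTHDC1 at chr4:68332794-68332847 (minus), SRRM1 at chr1:24663183-24663224 (plus) and VRK3 at chr19:50009236-50009289 (minus).

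The second set holds coding exons with the largest gains at that depth, CLSTN1, CBWD3 and DLG1 in siSNRPA1, and SPTAN1, PPHLN1 and TRIM33 in siSNRPB.
CLSTN1: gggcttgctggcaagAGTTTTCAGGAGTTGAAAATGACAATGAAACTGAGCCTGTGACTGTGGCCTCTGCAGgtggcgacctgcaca
DLG1: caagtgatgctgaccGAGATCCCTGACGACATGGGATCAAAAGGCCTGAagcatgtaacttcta
CBWD3: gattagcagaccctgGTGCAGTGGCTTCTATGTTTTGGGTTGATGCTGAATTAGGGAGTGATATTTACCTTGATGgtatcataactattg
SPTAN1: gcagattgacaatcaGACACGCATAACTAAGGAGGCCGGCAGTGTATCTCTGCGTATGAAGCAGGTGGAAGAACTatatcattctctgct
PPHLN1: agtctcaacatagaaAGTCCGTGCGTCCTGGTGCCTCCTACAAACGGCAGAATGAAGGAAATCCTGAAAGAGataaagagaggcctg
TRIM33: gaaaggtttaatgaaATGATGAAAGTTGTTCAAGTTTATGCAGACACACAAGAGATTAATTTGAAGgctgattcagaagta
On hg38, with the strand in parentheses, the exons lie for CLSTN1 at chr1:9737498-9737554 (minus), DLG1 at chr3:197075837-197075870 (minus) and CBWD3 at chr9:68256921-68256980 (plus). Those that follow lie for SPTAN1 at chr9:128592983-128593042 (plus), PPHLN1 at chr12:42384940-42384996 (plus) and TRIM33 at chr1:114397940-114397990 (minus). CBWD3 belongs to a family of near-identical gene copies, so its reads may have been split among them.

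The third set holds short exons long known to be regulated or deeply covered here, of which MBNL1, MARK2 and MICAL3 changed in at least 1 knockdown, while APP, CLTA and SEC31A passed in none of the tests they could enter.
MBNL1: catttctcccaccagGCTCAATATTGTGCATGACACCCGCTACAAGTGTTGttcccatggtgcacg
MARK2: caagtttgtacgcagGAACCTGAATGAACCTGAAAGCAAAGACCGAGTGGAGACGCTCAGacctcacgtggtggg
MICAL3: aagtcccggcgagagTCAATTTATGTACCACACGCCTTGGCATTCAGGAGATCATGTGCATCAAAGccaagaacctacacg
APP: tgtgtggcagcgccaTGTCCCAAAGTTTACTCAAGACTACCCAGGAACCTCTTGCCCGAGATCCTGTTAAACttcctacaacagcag
CLTA: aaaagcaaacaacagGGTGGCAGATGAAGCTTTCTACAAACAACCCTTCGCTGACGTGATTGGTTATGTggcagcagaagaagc
SEC31A: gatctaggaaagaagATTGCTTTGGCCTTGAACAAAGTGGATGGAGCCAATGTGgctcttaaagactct
On hg38, with the strand in parentheses, the exons lie for MBNL1 at chr3:152455542-152455577 (plus), MARK2 at chr11:63908260-63908304 (plus) and MICAL3 at chr22:17812507-17812557 (minus). Those that follow lie for APP at chr21:25997360-25997416 (minus), CLTA at chr9:36209267-36209320 (plus) and SEC31A at chr4:82862534-82862572 (minus).

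Place and reading frame are properties that the length class does not fix. Of the 4424 exons, 2260 (51.1%) lay within coding sequence, against 46.6% of all exons, and 544 lay in a 5' UTR. A further 449, called NMD exons here, lay in a transcript marked for nonsense-mediated decay (NMD) and in no protein-coding transcript. Another 723 occurred only in other noncoding transcripts. The rest were 251 partly coding exons, 8 in a 3' UTR, and 189 that matched no GENCODE exon exactly. Among the coding ones, 1373 (60.8%) had a length divisible by 3, against 51.1% of coding exons of any length. The median length was 49 nt.

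In the control pool most short exons lay near either end of the inclusion scale. Among short exons with at least 20 informative reads in siCtrl, 34% had an inclusion level below 0.1 and 34.6% a level above 0.9, against 20% and 41.2% of all exons at that depth. Intermediate levels made up 31.3% of the short exons and 38.8% of all. The median level of the short exons was 0.62 in siCtrl, 0.40 in siSNRPA1 and 0.57 in siSNRPB, and that of all exons 0.83, 0.73 and 0.83. The exons that reach this depth differ from pool to pool, so these medians describe each pool and are not a paired comparison.

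Depth limited what could be tested. The 3 pools listed 4209, 4245 and 3502 of the short exons in siCtrl, siSNRPA1 and siSNRPB, with 288844, 385774 and 174060 informative reads. The median short exon had 8, 10 and 8 informative reads, against 18, 23 and 15 for all exons. Between 70.4 and 81.1% of the reads of a median short exon fitted neither isoform. Both targets were low in their own pools: reads that fit an isoform of SNRPA1 stood at 118, 21.9 and 272 per 1000000 such reads in siCtrl, siSNRPA1 and siSNRPB, and those of SNRPB at 247, 337 and 30.6. Genes that mark the mesenchymal-like parental line (7 of 10 with events, among them CD44, AXL and ZEB1) summed to between 5940 and 6500 per 1000000 reads. CD44 alone gave between 3270 and 3540 of these. Epithelial and hormone receptor genes (8 of 10 with events) summed to between 14.1 and 22.5, of which ESRP2 gave between 10.8 and 13.5. CDH1, PGR and GRHL2 stood at 0 in siSNRPB, where an event missing from the pool also counts as 0. Reads were summed over all skipped exons of a gene, so a read can count more than once. No event was listed for VIM, CAV1, MSN, EPCAM and KRT19, so that they could not be read.

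In the siSNRPA1 pool, losses of inclusion outnumbered gains among short exons. Of 564 short exons tested against siCtrl, 127 (22.5%) fell and 23 (4.08%) rose, whereas over all 6459 tested exons 12.8% fell and 4.18% rose. The 127 exons belong to 119 genes, with a median fall of 0.23, and include exons of YTHDC1, SRRM1, MBNL1, MSL1, CHAF1A, TIMM50, TIMM23 and HSPA9. The median difference was -0.04 for the short exons and -0.02 for all exons. The difference in shares is a description, since the members of a length class are not replicates.

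**Figure D1:**
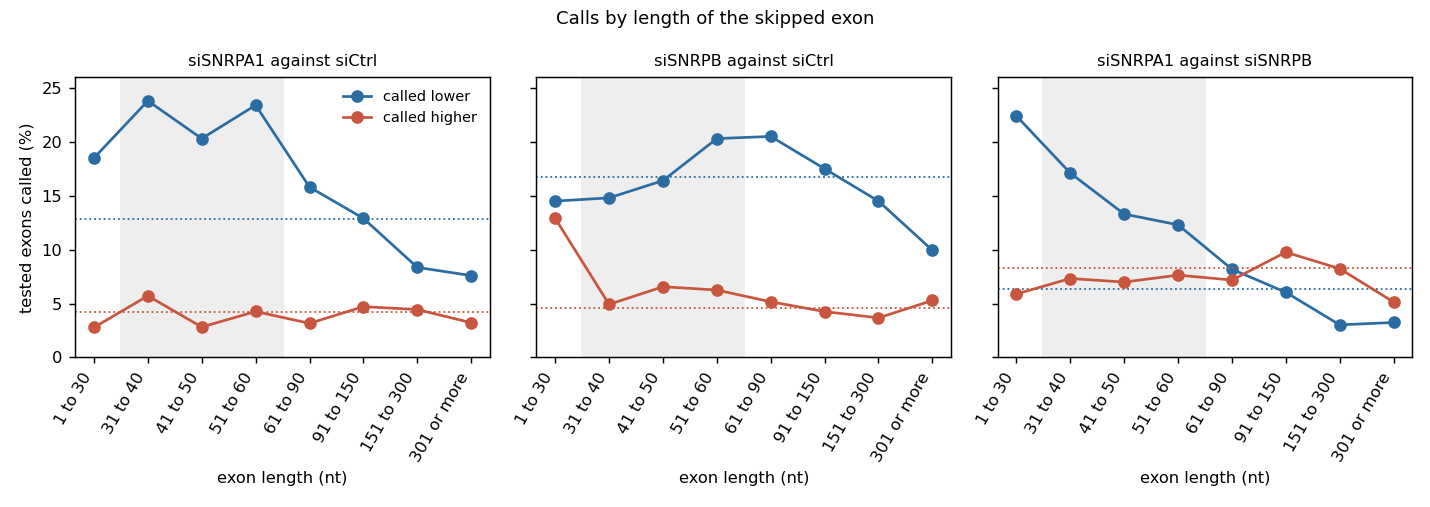
Share of tested exons called lower (blue) and higher (red) in each class of exon length in nt, for the 3 comparisons of pools; dotted lines give the shares over all tested exons and grey marks 31 to 60 nt. In siSNRPA1 against siCtrl the share called lower is between 20.3 and 23.8% in the 3 grey classes and 7.59% in the class of the longest exons.

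By length, the share that fell in siSNRPA1 was 23.8% at 31 to 40 nt, 20.3% at 41 to 50 nt and 23.4% at 51 to 60 nt. It was 18.5% in exons of at most 30 nt, then 15.8% at 61 to 90 nt, 12.9% at 91 to 150 nt, 8.35% from there up to 300 nt and 7.59% in longer exons. The share that rose stayed between 2.78 and 5.71% with no order by length. The borders of the class are not steps: 6 of 39 exons of 27 to 30 nt and 7 of 38 of 31 to 34 nt fell, and 19 of 131 of 57 to 60 nt and 24 of 122 of 61 to 64 nt.

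The fallen exons started from high inclusion. Their median level in siCtrl was 0.85, against 0.36 for the short exons that did not pass. Among short exons with a control level of 0.9 or more, 35.3% of 150 fell, against 21.5% of 1365 exons of any length. Between 0.5 and 0.9 the shares were 33.6 and 21.2%, and between 0.1 and 0.5 they were 18.6 and 14.4%. An exon below 0.1 cannot fall by 0.1. Since the control level moves with the calls, its part in the shares by length was not tested beyond these classes.

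**Figure D2:**
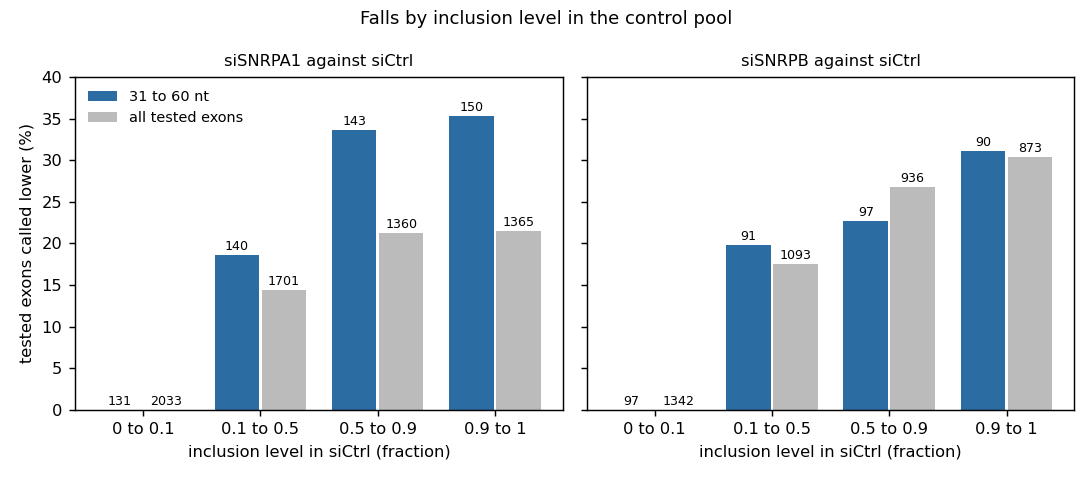
Share of tested exons called lower in siSNRPA1 (left) and siSNRPB (right) against siCtrl, by inclusion level in siCtrl, for exons of 31 to 60 nt (blue) and all tested exons (grey); the number above each bar counts the exons tested. In siSNRPA1 the blue bars are the higher at every level from 0.1 up, while in siSNRPB blue and grey bars lie closer.

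The largest fall at a depth of at least 50 informative reads in both pools was in PPIL3, a cyclophilin-type prolyl isomerase. Its 41-nt exon, an NMD exon, had inclusion levels of 0.80 in siCtrl, 0.24 in siSNRPA1 and 0.66 in siSNRPB. Inclusion reads were 73 of 83 in siCtrl (88.0%, 95% Wilson interval 79.2 to 93.3%), 57 of 154 in siSNRPA1 (37.0%, 29.8 to 44.9%) and 65 of 82 in siSNRPB (79.3%, 69.3 to 86.6%). Only the siSNRPA1 pool is low, with a Fisher's exact adjusted p of 1.53e-12 against siCtrl and 0.243 for siSNRPB against siCtrl.

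MSL1, the scaffold of a histone H4 acetyltransferase complex, had levels of 0.85 in siCtrl, 0.32 in siSNRPA1 and 0.51 in siSNRPB at the 48-nt exon printed above. Its reads moved less than its level: inclusion reads were 61 of 61 in siCtrl, for which the Wilson interval is 94.1 to 100%, 44 of 58 in siSNRPA1 and 25 of 27 in siSNRPB (Fisher's exact adjusted p = 0.000259 in siSNRPA1). The level also draws on reads within the flanking exons, which the share of informative reads leaves out.

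AGTPBP1, an enzyme that removes glutamate residues from tubulin, lost inclusion of its 38-nt exon in siSNRPA1. The levels were 0.96, 0.48 and 0.89, and inclusion accounted for 58 of 58 informative reads in siCtrl, 43 of 73 in siSNRPA1 and 54 of 58 in siSNRPB. YTHDC1, a nuclear reader of methylated adenosine in RNA, had levels of 0.96, 0.53 and 0.96 at a 54-nt exon, and its 6 exclusion reads all came from siSNRPA1, beside 48 inclusion reads there (Fisher's exact adjusted p = 0.0245). Neither could be tested in siSNRPB against siCtrl, where exclusion reads were too few, but between the knockdowns both were lower in siSNRPA1 (Fisher's exact adjusted p = 0.000118 for AGTPBP1 and 0.0328 for YTHDC1).

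In C1orf43, a broadly expressed gene, 2 separate short exons fell in both knockdowns. The 54-nt exon printed above had levels of 0.83 in siCtrl, 0.40 in siSNRPA1 and 0.29 in siSNRPB, with 383 of 417, 368 of 581 and 94 of 199 informative reads for inclusion. Adjusted p-values from Fisher's exact test were 4.82e-24 for siSNRPA1 and 1.96e-30 for siSNRPB. The 59-nt exon had levels of 0.81, 0.56 and 0.38. Both exons are lowest in siSNRPB and highest in siCtrl.

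TIMM50, a subunit of the translocase that imports proteins across the inner mitochondrial membrane, had levels of 0.89, 0.47 and 0.57 at a 59-nt exon. Exclusion reads numbered 0 of 97 in siCtrl, 9 of 81 in siSNRPA1 and 6 of 50 in siSNRPB. PSMG1, a proteasome assembly chaperone, had levels of 0.92, 0.45 and 0.82 at a 48-nt exon whose ends match no GENCODE exon. APTX, which repairs failed DNA ligation, had levels of 0.73, 0.29 and 0.55 at a 42-nt NMD exon, whose 47-nt form shares reads with it.

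Rises in siSNRPA1 were fewer than falls, with a median gain of 0.19. CLSTN1, a calsyntenin that links membrane cargo to kinesin motors, had levels of 0.21, 0.46 and 0.15 at its 57-nt exon. Inclusion reads were 36 of 106 in siCtrl (34%, 25.6 to 43.4%), 134 of 202 in siSNRPA1 (66.3%, 59.6 to 72.5%) and 18 of 68 in siSNRPB (26.5%, 17.4 to 38%), so siSNRPA1 lies above both other pools (Fisher's exact adjusted p = 2.6e-06 against siCtrl). DLG1, a scaffold of cell junctions, had levels of 0.03, 0.25 and 0.03 at its 34-nt exon, with 8 of 70, 41 of 55 and 3 of 41 informative reads for inclusion (Fisher's exact adjusted p = 3.66e-11).

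KIF13A, a kinesin that carries membrane cargo, had levels of 0.74, 0.88 and 0.85 at a 39-nt exon, and CBWD3 levels of 0.74, 0.98 and 0.92. PHPT1, a histidine phosphatase, had levels of 0.02, 0.21 and 0.12 at a 55-nt exon, whose 58-nt form shares reads with it. Smaller rises were those of ZEB1, a transcription factor of the epithelial to mesenchymal transition, from 0.83 to 0.96, CALB2 (calretinin) from 0.85 to 0.98, and USP47, a deubiquitinase, from 0.02 to 0.15. By the share of inclusion reads, ZEB1 gained 0.0258 and CALB2 0.075, both under 0.1, and neither would be called.

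**Figure D3:**
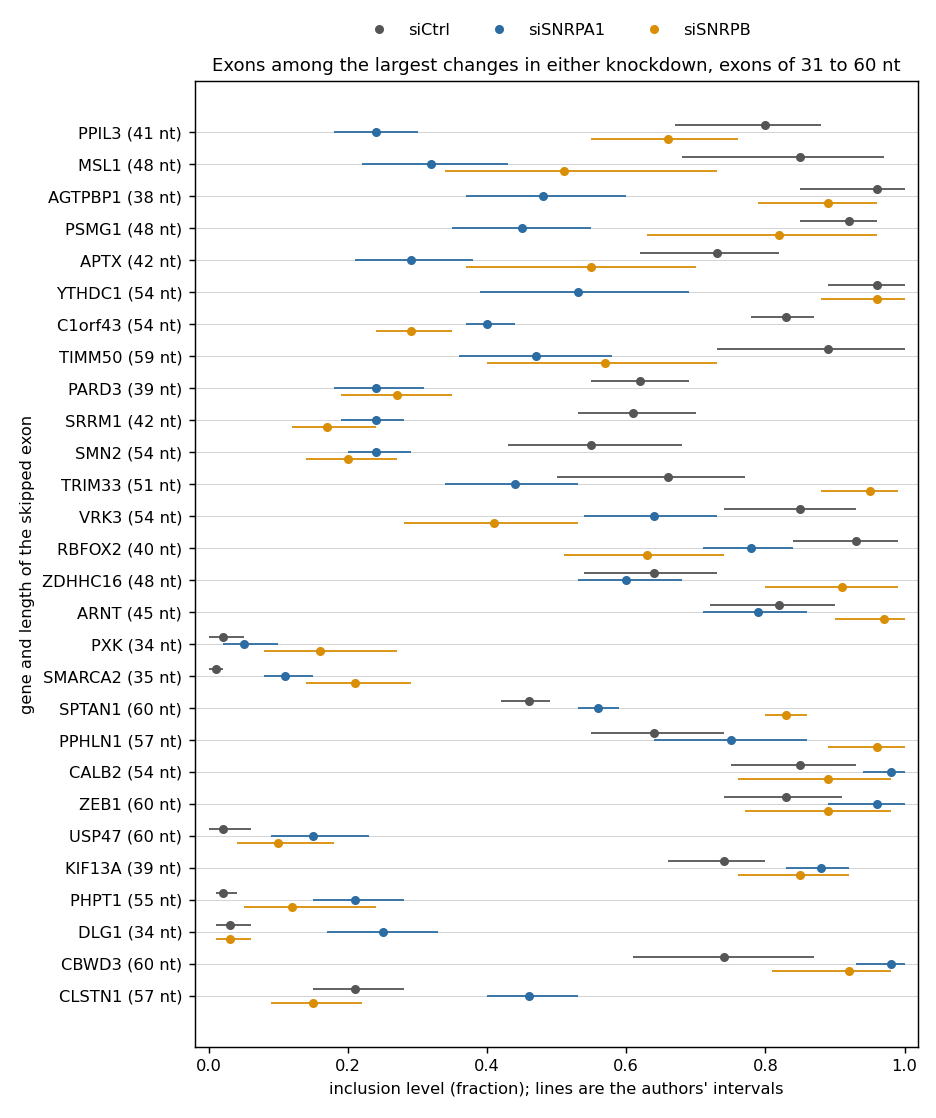
Inclusion level (fraction, points) with the authors' interval (lines) in siCtrl (grey), siSNRPA1 (blue) and siSNRPB (orange) for short exons among the largest falls and rises in either knockdown at 50 or more informative reads in each pool compared, ordered by the difference of siSNRPA1 from siCtrl. PPIL3, AGTPBP1 and YTHDC1 stand low in siSNRPA1 alone, C1orf43, SRRM1 and PARD3 in both knockdowns, and TRIM33 on opposite sides of siCtrl.

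Among genes of the splicing machinery and its regulators, 8 of 35 tested short exons fell in siSNRPA1 and 1 rose (LSM14A), a share of 22.9% beside 22.5% for all short exons, with a median difference of -0.02. SRRM1, a coactivator that bridges splicing complexes, had levels of 0.61, 0.24 and 0.17 at its 42-nt exon, with 112 of 140, 98 of 251 and 33 of 106 informative reads for inclusion. MBNL1, which governs developmental splicing switches, had levels of 0.91, 0.58 and 0.64 at its 36-nt exon. Its exclusion reads numbered 0 of 100 in siCtrl, 16 of 159 in siSNRPA1 and 0 of 50 in siSNRPB, so that siSNRPB could not be tested although its level is low.

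SMN1 and SMN2, near-identical genes whose product assembles the Sm core of snRNPs, each have a partly coding 54-nt exon. The levels were 0.74, 0.33 and 0.45 in SMN1 and 0.55, 0.24 and 0.20 in SMN2, and both fell in both knockdowns. Exclusion reads numbered 7, 78 and 37 in each of the 2 genes. The same reads may thus stand for both copies, so their falls are not separate observations and neither can be taken alone. Also in the list, and named after their values were seen, were MATR3 with levels of 0.98, 0.78 and 0.84 and PNISR with 0.34, 0.05 and 0.19.

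Among genes of the cell cycle and DNA repair, 6 of 13 tested short exons fell in siSNRPA1 (46.2%, beside 22.5% of all tested short exons and 12.8% of all tested exons) and 1 rose (RECQL). The median difference was -0.19, beside -0.04 for all tested short exons, and 2 of the 6 are overlapping forms of APTX. SGO1, the shugoshin that protects cohesion at centromeres, had levels of 0.58, 0.15 and 0.75 at its 51-nt exon. Inclusion reads were 21 of 26, 9 of 33 and 23 of 27 in siCtrl, siSNRPA1 and siSNRPB, and an antisense gene, SGO1-AS1, overlaps the exon, so that its reads cannot be told apart without strand. EXO5, an exonuclease of DNA repair, had levels of 0.94, 0.52 and 0.50 at a 58-nt exon of the 5' UTR, low in both knockdowns. CCNB1, cyclin B1, had levels of 0.98, 0.79 and 0.85 at a partly coding 59-nt exon.

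Of 28 tested short exons in genes of chromatin and transcription, 7 fell in siSNRPA1 (25.0%) and 2 rose (7.14%, ZEB1 and SMARCA2). Beside these stand 22.5% and 4.08% of all tested short exons and 12.8% and 4.18% of all tested exons. Besides MSL1, CREB1, a cyclic AMP-responsive transcription factor, had levels of 0.58, 0.26 and 0.34 at a 42-nt exon. PRMT1, the main arginine methyltransferase, had levels of 0.52, 0.26 and 0.18 at a 54-nt exon, resting on 36, 43 and 8 informative reads.

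Mitochondrial and metabolic genes had 6 falls (28.6%) and 0 rises among 21 tested short exons in siSNRPA1. In the same comparison 22.5% of all tested short exons and 12.8% of all tested exons fell. HSPA9, the mitochondrial HSP70 chaperone, was at 1.00, 0.67 and 0.89 at a 59-nt form of its exon, with 0 exclusion reads of 515 in siCtrl, 84 of 666 in siSNRPA1 and 22 of 400 in siSNRPB. HMGCS1, an enzyme of cholesterol synthesis, had levels of 0.85, 0.30 and 0.26 at a 59-nt exon of the 5' UTR, on 57, 45 and 29 informative reads. MRPL48, a protein of the mitochondrial ribosome, had levels of 0.84, 0.63 and 0.70.

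Genes of the cytoskeleton and adhesion had 4 falls (14.8%) and 2 rises (7.41%) among 27 tested short exons in siSNRPA1, with a median difference of 0.01. Of all tested short exons 22.5% fell and 4.08% rose, and of all tested exons 12.8% and 4.18%. PARD3, a cell polarity scaffold, had levels of 0.62, 0.24 and 0.27 at a 39-nt exon, with exclusion reads in 55 of 206, 59 of 113 and 47 of 82. LIMCH1, an activator of nonmuscle myosin, had levels of 0.77, 0.45 and 0.91 at a 31-nt exon. Vesicle trafficking genes had 1 fall and 1 rise among 15 (6.67% each). DENND1A, an exchange factor for a RAB GTPase of endosomes, fell, with levels of 0.97, 0.59 and 0.92, and KIF13A rose.

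Of 25 tested short exons in kinase and signalling genes, 4 fell in siSNRPA1 (16.0%) and 0 rose. Falls made up 22.5% of all tested short exons and 12.8% of all tested exons. MARK2, a kinase of microtubule-binding proteins, had levels of 0.98, 0.78 and 0.85 at its 45-nt exon, with exclusion reads in 4 of 237, 61 of 318 and 26 of 199. PRKAG1, a regulatory subunit of the AMP-activated kinase, had levels of 0.94, 0.67 and 0.95 at a 38-nt exon that an antisense gene, DDN-AS1, overlaps. PIP4K2C, a lipid kinase, had levels of 0.66, 0.31 and 0.20, the last on 7 informative reads, all of them for inclusion.

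Some siSNRPA1 calls depended on the measure. With the share of inclusion reads in place of the level, SHC1 (-0.0763), SPTAN1 (0.0886) and PPHLN1 (0.098) also moved under 0.1. The authors' deposited table gives a Bayes factor under 10 for ZEB1, USP47, PPHLN1, PIP4K2C, CALB2, PRMT1, TRIM33, RBFOX2 and LIMCH1 in siSNRPA1.

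In the siSNRPB pool losses again outnumbered gains, at shares close to those of all exons. Of 375 short exons tested against siCtrl, 68 (18.1%) fell and 23 (6.13%) rose, whereas over all 4244 tested exons 16.7% fell and 4.62% rose. Where siCtrl and siSNRPB each had 50 or more informative reads, the largest falls included those of C1orf43, SRRM1 and VRK3, and the largest rises were in SPTAN1, PPHLN1 and TRIM33. The median difference was -0.02 for the short exons and -0.01 for all. This pool held 1 library and the fewest reads, and siSNRPA1 and siSNRPB share the siCtrl pool, so the shares of the 2 knockdowns are not independent.

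**Figure D4:**
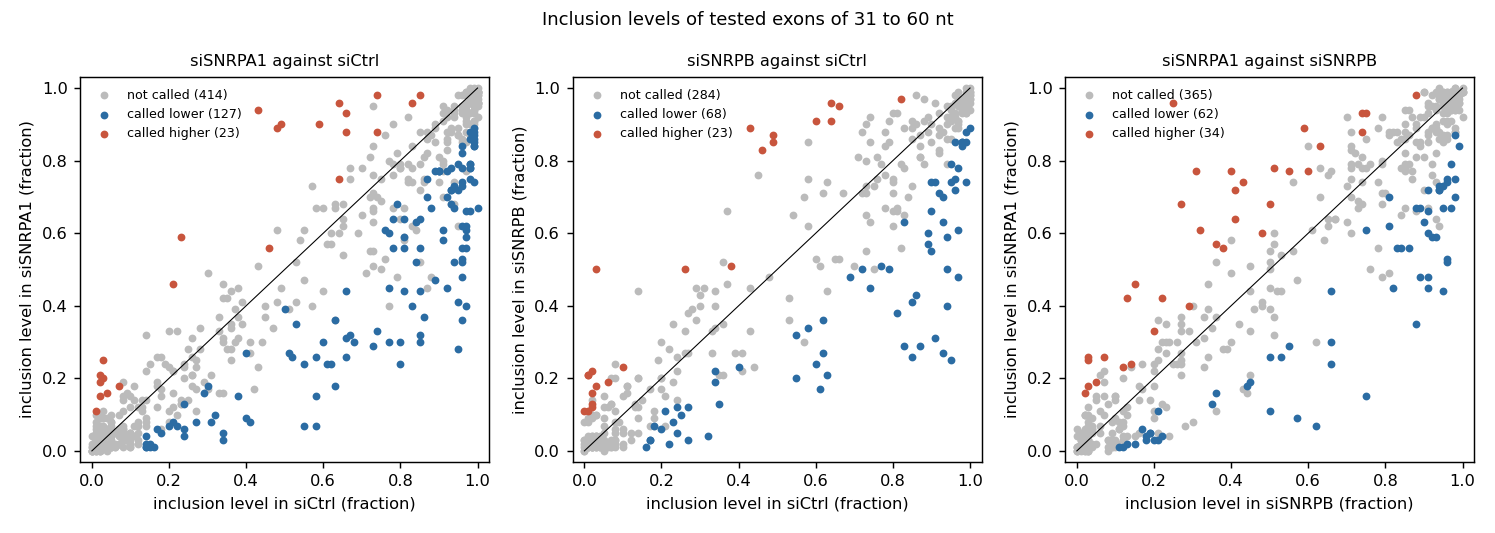
Inclusion levels (fraction) of the tested exons of 31 to 60 nt, each point 1 exon, with siCtrl on the x axis in the left and middle panels and siSNRPB on the x axis in the right; blue marks exons called lower, red higher, grey not called, and the line marks equal levels. In the left panel 127 exons lie below the line in blue and 23 above it in red, in the middle panel 68 and 23, and in the right panel 62 and 34.

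By length, 14.8% of short exons of 31 to 40 nt, 16.4% of 41 to 50 nt and 20.3% of 51 to 60 nt fell in siSNRPB, beside 20.5% at 61 to 90 nt. At the borders 4 of 25 exons of 27 to 30 nt, 1 of 23 of 31 to 34 nt, 13 of 83 of 57 to 60 nt and 9 of 68 of 61 to 64 nt fell. At control levels of 0.9 or more, 31.1% of short exons and 30.4% of all exons fell, and between 0.5 and 0.9 the shares were 22.7 and 26.8%.

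VRK3, a kinase-like protein of the nucleus, had levels of 0.85 in siCtrl, 0.64 in siSNRPA1 and 0.41 in siSNRPB at its 54-nt exon. Inclusion reads were 54 of 59 (91.5%, 81.6 to 96.3%), 78 of 108 (72.2%, 63.1 to 79.8%) and 26 of 54 (48.1%, 35.4 to 61.1%), with a Fisher's exact adjusted p of 6.68e-06 for siSNRPB and 0.0142 for siSNRPA1. The siSNRPA1 pool lies between siCtrl and siSNRPB.

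RBFOX2, a splicing regulator of muscle and neuronal exons, had levels of 0.93, 0.78 and 0.63 at a 40-nt exon. SRSF10, an SR-like splicing factor, lost inclusion in siSNRPB at 2 forms of 1 exon that share their 3' end and differ by 3 bases at the 5' end. The 54-nt form had levels of 0.94, 0.77 and 0.40 and the 51-nt form 0.87, 0.33 and 0.29. Of the splicing list, 10 of 34 tested short exons fell in siSNRPB (29.4%, the SRSF10 forms counted separately) and 0 rose, beside 18.1% and 6.13% of all tested short exons and 16.7% and 4.62% of all tested exons. The median difference was -0.055 for the list and -0.02 for all tested short exons.

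SPTAN1, the non-erythroid alpha spectrin, had levels of 0.46, 0.56 and 0.83 at its 60-nt exon. Inclusion reads were 418 of 737 in siCtrl (56.7%, 53.1 to 60.2%), 621 of 947 in siSNRPA1 (65.6%, 62.5 to 68.5%) and 613 of 698 in siSNRPB (87.8%, 85.2 to 90%), with no overlap among the 3 intervals. The adjusted p from Fisher's exact test was 1.74e-37 for siSNRPB and 0.00197 for siSNRPA1.

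MICAL3, an actin-oxidising enzyme of vesicle transport, had levels of 0.03, 0.11 and 0.50 at its 51-nt exon, on 45, 78 and 28 informative reads, so siSNRPB stands apart on the thinnest coverage. The cytoskeleton and adhesion list had 4 rises (25.0%, beside 6.13% of all tested short exons and 4.62% of all tested exons) and 2 falls among 16 tested short exons in siSNRPB, the rises including SPTAN1, MICAL3 and DIAPH1 and the falls being PARD3 and KIF23.

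PPHLN1, periphilin, had levels of 0.64, 0.75 and 0.96 at a 57-nt exon. ZDHHC16, a protein palmitoyltransferase, had levels of 0.64, 0.60 and 0.91, and ARNT, the partner of hypoxia-inducible factors, 0.82, 0.79 and 0.97. SMARCA2, an ATPase of SWI/SNF chromatin remodellers, had levels of 0.01, 0.11 and 0.21 at a 35-nt exon of the 5' UTR, with inclusion reads in 1 of 172, 33 of 228 and 25 of 93. PXK, a kinase-like protein of endosomes, had levels of 0.02, 0.05 and 0.16 at a 34-nt exon.

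The kinase and signalling list had 3 falls (16.7%) and 2 rises (11.1%) among 18 tested short exons in siSNRPB. Of all tested short exons 18.1% fell and 6.13% rose there, and of all tested exons 16.7% and 4.62%. SHC1, an adaptor of receptor tyrosine kinases, had levels of 0.90, 0.77 and 0.66. Mitochondrial and metabolic genes had 3 falls (17.6%) and 0 rises among 17. The falls included HMGCS1 and TOMM7, a small subunit of the outer membrane translocase with levels of 0.72, 0.55 and 0.50.

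Of the other lists in siSNRPB, vesicle trafficking had 2 falls (22.2%) and 0 rises among 9. These were VAMP7, a SNARE of lysosomal fusion, with levels of 0.55, 0.61 and 0.32, and AP2B1, a subunit of the clathrin adaptor, with 0.18, 0.15 and 0.07. Cell cycle and repair had 3 falls (25.0%) and 0 rises among 12 (EXO5, CCNB1 and CEP70, a centrosomal protein). Chromatin and transcription had 2 falls (8.33%) and 1 rise (4.17%) among 24. Its falls were CREB1 and CHAF1A, a subunit of a histone chaperone with levels of 0.99, 0.74 and 0.74. Beside these lists, 18.1% of all tested short exons fell and 6.13% rose in siSNRPB, and 16.7% and 4.62% of all tested exons. By the share of inclusion reads, HSPA9 (-0.055), CCNB1 (-0.0833) and TOMM7 (-0.093) moved under 0.1 in siSNRPB, and the authors' deposited table gives a Bayes factor under 10 there for AP2B1, TIMM50, ARNT, CREB1, CEP70, PXK, TOMM7 and VAMP7.

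Short exons in a list of 98 genes, drawn up for known regulation of short exons, went both ways. Every tested short exon of these genes counts, whether or not it is the regulated one. In siSNRPA1, 10 of 40 tested fell (25.0%) and 3 rose (7.5%), with a median difference of -0.02. In siSNRPB 7 of 27 fell (25.9%) and 2 rose (7.41%), with a median of -0.03. Of all tested short exons, 22.5% fell and 4.08% rose in siSNRPA1, and 18.1% and 6.13% in siSNRPB. Of all tested exons, 12.8% and 4.18% did so in siSNRPA1, and 16.7% and 4.62% in siSNRPB. Among the deepest, the 57-nt exon of APP, the amyloid precursor, had levels of 0.36, 0.34 and 0.35, on 541, 798 and 406 informative reads. The neuronal 54-nt exon of CLTA, a clathrin light chain, had levels of 0.01 in all 3 pools, with inclusion reads in 13 of 756, 12 of 608 and 6 of 331. Both show intervals that overlap across the pools.

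At the other end of the scale, the 38-nt exon of CLTA had levels of 1.00, 0.99 and 0.96, the 54-nt exon of APP 0.96, 0.95 and 0.93, and the 60-nt exon of MAP4, a microtubule-binding protein, 0.99, 0.98 and 0.99. SEC31A, a subunit of the COPII coat, had levels of 0.97, 0.99 and 0.99 at a 39-nt exon. DLG1 held 3 tested short exons, of which the 51-nt exon (0.99, 0.96 and 0.98) and the 54-nt exon (0.92, 0.94 and 0.93) did not change by 0.1 while the 34-nt exon rose in siSNRPA1. APLP2, a relative of APP, differed from it at a 36-nt exon, with levels of 0.40, 0.27 and 0.23 and a fall in both knockdowns.

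The knockdowns were then compared with each other, which does not use the control pool. Of 461 short exons tested, 62 (13.4%) were lower in siSNRPA1 than in siSNRPB and 34 (7.38%) were higher, whereas over all 5082 tested exons 6.38% were lower and 8.28% higher. Where each knockdown pool had 50 or more informative reads, exons of TRIM33, ASPH, YTHDC1, PPIL3 and AGTPBP1 were the furthest below siSNRPB, and those of CLSTN1, AKAP13, VRK3 and NAP1L4 were among the furthest above it. Lower calls outnumbered higher calls among the short exons, while among all exons the higher calls were the more numerous. By length, 17.1% of exons of 31 to 40 nt, 13.3% of 41 to 50 nt and 12.3% of 51 to 60 nt were lower in siSNRPA1, beside 22.4% of exons of at most 30 nt and 3.02% of those between 150 and 300 nt. At the borders, 4 of 30 exons of 27 to 30 nt, 5 of 27 of 31 to 34 nt, 12 of 103 of 57 to 60 nt and 12 of 93 of 61 to 64 nt were lower.

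TRIM33 is a ubiquitin ligase of transforming growth factor signalling. Of short exons called between the knockdowns and tested in both against siCtrl, its exon alone fell in 1 and rose in the other. Its 51-nt exon had levels of 0.66 in siCtrl, 0.44 in siSNRPA1 and 0.95 in siSNRPB. Inclusion reads were 47 of 64 (73.4%, 61.5 to 82.7%), 46 of 90 (51.1%, 41 to 61.2%) and 56 of 57 (98.2%, 90.7 to 99.7%). The adjusted p from Fisher's exact test was 6.68e-09 between the knockdowns, 0.028 for siSNRPA1 against siCtrl and 0.000581 for siSNRPB against siCtrl. The fall in siSNRPA1 did not pass with all read counts divided by 2 (Fisher's exact adjusted p = 0.191), and the authors' deposited table gives it a Bayes factor of 3.45.

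ASPH, which hydroxylates aspartate and has calcium-handling isoforms, had levels of 0.84, 0.52 and 0.96 at a 39-nt exon, whose 42-nt form shares reads with it. A separate 57-nt exon of the gene had levels of 0.97, 0.66 and 0.91 and was also lower in siSNRPA1. AKAP13, an anchor of protein kinase A, had levels of 0.35, 0.42 and 0.13 at a 54-nt exon overlapped by the antisense gene AC087286.2. NAP1L4, a histone chaperone, had levels of 0.62, 0.57 and 0.36 at a partly coding 38-nt exon, with 405, 763 and 304 informative reads.

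The exons that separate the knockdowns were also read against siCtrl, for each knockdown on its own. An exon that did not pass there is not shown to be unchanged, and the counts of the 2 knockdowns were not joined by exon. Of the 62 lower in siSNRPA1, 59 could be tested in siSNRPA1 against siCtrl, where 38 fell, 2 rose and 19 did not pass, and 44 in siSNRPB against siCtrl, where 2 fell, 13 rose and 29 did not pass. Of the 34 higher in siSNRPA1, 27 could be tested in siSNRPA1, where 7 fell, 2 rose and 18 did not pass, and 32 in siSNRPB, where 25 fell, 0 rose and 7 did not pass. These counts share pools with the comparison that chose the exons and are given as a description. Genes of the cytoskeleton and adhesion gave 6 lower (28.6%) and 3 higher (14.3%) of 21 tested. Cell cycle and repair gave 6 lower (46.2%, 3 of them APTX forms) and 0 higher of 13. Splicing gave 2 lower (5.0%) and 3 higher (7.5%) of 40. Of all tested short exons 13.4% were lower and 7.38% higher, and of all tested exons 6.38% and 8.28%.

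Reading frame and place in the gene were compared within the short exons. In siSNRPA1, 21.2% of 321 exons with a length divisible by 3 fell and 24.3% of 243 others. Among coding exons alone the shares were 20.7% of 266 and 30.2% of 129, beside 16.3 and 17.2% for coding exons of any length. The coding exons that would shift the frame also stood at a higher control level, with a median of 0.87 against 0.58, whose part in the difference was not tested. In siSNRPB the coding shares were 16.5% of 182 and 21.8% of 78.

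By place, 23.8% of 395 coding, 27.9% of 43 5' UTR, 17.9% of 39 partly coding, 16.7% of 42 noncoding and 13.5% of 37 NMD short exons fell in siSNRPA1. In siSNRPB the shares were 18.1% of 260 coding, 25.7% of 35 5' UTR, 30.3% of 33 partly coding, 10.5% of 19 noncoding and 0 of 23 NMD exons. NMD and noncoding exons stood at median control levels of 0.05 and 0.09 in the siSNRPA1 comparison, where few can fall by 0.1.

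Sequence features of the fallen exons were set beside those of the other short exons. In siSNRPA1 the median GC content was 46.3% for the fallen, 46.3% for the risen and 46.6% for those that did not pass. The exon ended in CAG in 28.8% of the fallen and 19.6% of those that did not pass. Of the exons printed above, those of CLSTN1, which rose in siSNRPA1, and MARK2, which fell there, end so, and none of the first set does. The enhancer-like hexamer GAAGAA, searched on the transcribed strand within the exon, was in 10 of 125 fallen exons (8.0%) and 25 of 408 not passed (6.13%). The median upstream intron was 2276 and 2124 nt long and the median downstream intron 1398 and 2052 nt, in the same order. In siSNRPB, 25.0% of the fallen and 22.2% of the not passed ended in CAG, and GAAGAA was in 1 of 68 and 18 of 279. None of these differences was tested.

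Besides C1orf43 and ASPH, TPD52L2 and ACER3 had 2 separate short exons that fell in siSNRPA1. Those of ACER3 rested on few reads. Inclusion reads were 5 of 29 in siCtrl and 0 of 38 in siSNRPA1 at its 37-nt exon, and 9 of 23 and 0 of 24 at its 46-nt exon. TPD52L2, a tumour protein D52 family member named here after its values were seen, had levels of 0.79, 0.68 and 0.50 at a 60-nt exon, with inclusion reads in 980 of 1106, 1060 of 1279 and 359 of 533. Its 49-nt exon had levels of 0.99, 0.89 and 0.93, and its 42-nt exon 0.00, 0.04 and 0.00. The 3 short exons of this gene thus sat at both ends and in the upper middle of the scale, and the 60-nt exon fell in both knockdowns. By the share of inclusion reads, however, the 60-nt exon moved under 0.1 in siSNRPA1.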

How the data were processed

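RNA from 6 MDA-LM2 libraries in 3 groups was turned, per the labels' protocols, into stranded low-input libraries of total RNA. The submitters' processing notes name STAR 2.7 and hg38, without role or order. The headers match MISO, which estimates exon inclusion. Not given in the sources used here were its version and settings, the pooling of libraries and the strand setting of the counting. Per the file headers, the inclusion level is a posterior mean, a fraction from 0 to 1, which the authors rounded to 2 decimals, with the bounds of an interval of unstated width. The deposited read counts fall into classes that fit inclusion, exclusion, both or neither, and every event held at least 20 reads over all classes. The authors also deposited, for each knockdown against siCtrl, a difference in inclusion, which is a score between -1 and 1, and a Bayes factor, which is a ratio of evidence. All 44653 and 38112 deposited differences equalled the difference of the summaries within 0.001.

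Where events shared a middle exon, the event covered by most informative reads was used. Tests, thresholds and adjustment over all exons are given in the text, with 95% Wilson intervals; p-values and intervals cover counting error only, since no molecular identifiers are described, so the reads are not independent molecules. Coordinates are as deposited, on hg38, counted from 1. GENCODE 29 gave gene names, place in the gene and transcript sequence, and matched 95.7% of the short exons exactly. No genome sequence was used, so introns and splice sites were not analysed here. Of the short exons, 427 overlap a gene on the other strand, and their reads are uncertain. Named exons were the 8 largest falls and rises of each knockdown at 50 or more informative reads. Added to these were the 5 largest differences each way between knockdowns and up to 3 of each of 8 gene lists. The last were the 10 deepest in genes of the known short exon list. Some of the exons this rule names are not reported here. The members and lists were chosen with earlier results of these data known. The procedure was tested on simulated data with independent reads and a level equal to the read share. That test therefore does not cover the authors' level or a spread among libraries. Tools were scipy 1.17.1, pandas 2.3.3, numpy 2.4.6 and matplotlib 3.10.9 under Python 3.11.15.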

Additional observations from a re-analysis of the deposited data

How the results depend on the processing

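The counts of short exons that fell or rose moved most with the depth and the size of difference asked for. With a minimum of 50 informative reads per pool, falls and rises numbered 84 and 14 of 380 in siSNRPA1 against siCtrl, 44 and 15 of 244 in siSNRPB against siCtrl, and 34 and 18 of 289 between the knockdowns. The share that fell was then 22.1% in siSNRPA1, beside 12.6% of all exons, and 18.0% in siSNRPB, beside 16.0%. With a minimum of 10 reads, rises in siSNRPB numbered 39 of 482. With a difference of at least 0.2, the counts were 79 and 11 in siSNRPA1, 43 and 13 in siSNRPB, and 18 exons higher in siSNRPA1 than in siSNRPB. With read counts divided by 2 they were 46 and 5, 27 and 8, and 20 and 12. The shares of falls in siSNRPA1 under these alternatives lay between 14.0 and 22.1%, beside 6.58 to 12.6% of all exons. With fewer reads fewer exons enter the test. The use of read shares, of all events, of exons with no gene on the other strand, of 1 form for each overlapping exon, or of the authors' Bayes factor (at least 10; the 2 comparisons with siCtrl only) left each count within 1.5 times its value. Of the named results tested under each setting, 30 of 132 lost their call with counts divided by 2. Besides TRIM33, those of siSNRPA1 against siCtrl included MBNL1, HMGCS1, VRK3, MRPL48, KIF13A and the 39-nt form of ASPH. Those of siSNRPB against siCtrl included RBFOX2 and VAMP7. At a difference of 0.2 the loss was 25 of 180, by the Bayes factor 18 of 119 and by read share 10 of 180. These totals include results that had no call and leave out those no longer tested, so they are not rates of lost calls. By read share HSPA9 also lost its call between the knockdowns (-0.0711), while the 51-nt form of SRSF10, at 0.04 by level, differed by 0.372. No paired analysis was possible because each group has 1 pooled summary, with no columns for its libraries, and for the same reason no library could be left out.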

Other observations

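Several short exons outside the named set separated the knockdowns, and were picked after their values were seen. MYL6, a myosin light chain, had inclusion levels of 0.15 in siCtrl, 0.24 in siSNRPA1 and 0.14 in siSNRPB at a 45-nt exon (Fisher's exact adjusted p = 2.21e-08 between the knockdowns). ENAH, an actin regulator at the leading edge of cells, had levels of 0.11, 0.04 and 0.18 at a 57-nt exon (adjusted p = 0.00364 by the same exact test). PTK2, the focal adhesion kinase, had levels of 0.08, 0.03 and 0.20 at a 58-nt exon. MAPK3, the MAP kinase ERK1, had levels of 0.08, 0.19 and 0.05 at a 51-nt exon, and MAP2K7, a kinase upstream of JNK, 0.37, 0.30 and 0.66 at a 48-nt exon. FOXM1, a transcription factor of mitosis, had levels of 0.78, 0.67 and 0.88 at a 45-nt exon, and KDM1A, a histone demethylase, 0.29, 0.16 and 0.36 at the 60-nt exon. In MYL6 and MAPK3 the siSNRPA1 pool was the highest of the 3, and in ENAH, PTK2, MAP2K7, FOXM1 and KDM1A the lowest.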
